A study of Mus musculus with 6 samples.

Results

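The genes described here are 31 markers of macrophages and other myeloid cells, taken by symbol from the 24346 genes of each deposited table. All 31 symbols were found. They fall into 7 roles: leukocyte surface proteins, macrophage identity and adhesion proteins, chemokine receptors, scavenger and pattern recognition receptors, Fc receptors with their signalling adaptors, the chains of complement C1q, and lysosomal or secreted proteins.

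RNA of the renal cortex was sequenced in 6 C57BL/6 mice, 3 per group. The mice of the tofogliflozin group ate for 8 weeks the HF/HC/HS/BA diet, a steatohepatitis-inducing feed rich in fat, cholesterol and bile salt, with tofogliflozin mixed into it. The mice of the diet group ate the same feed for 8 weeks without the drug, so both groups carry the effects of the diet. Tofogliflozin inhibits SGLT2, the sodium-glucose cotransporter of the proximal tubule, and the series title names renal inflammation among the outcomes it addresses. Age, sex, litter and batch are not given in the labels, and mice on a standard feed were not analysed here.

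Macrophages of the kidney lie between the tubules, where they take up debris, immune complexes and lipid through scavenger and Fc receptors, and present antigen. Some are seeded before birth and renew themselves locally, and others come from blood monocytes that carry the chemokine receptor CCR2. Both depend on signalling through the CSF1 receptor and on the transcription factor PU.1. Because the RNA came from whole cortex, fewer cells of a type and less RNA per cell cannot be told apart.

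The cortex label was checked first. All 12 proximal tubule markers passed the filter on low values, which kept genes with at least 1 FPKM (fragments per kilobase of transcript, scaled to the depth of the library) in at least 3 of the 6 libraries. Slc34a1, the main phosphate transporter of the proximal tubule, ranged from 2128 to 2292 FPKM in the tofogliflozin libraries and from 2286 to 2645 FPKM in the diet libraries. By the spacing of low FPKM values, about 7890000 to 10000000 fragments were counted in the tofogliflozin libraries and 7830000 to 8470000 in the diet libraries. Diet replicate 2, which recurs below, had about 7830000, the fewest by a small margin. A ribosomal protein gene that all cells use, Rpl26, stands at 0 in 3 of the tables, so a listed 0 need not mean that the transcript was missing.

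No marker passed the test between tofogliflozin and diet. Of the 31 genes, 24 passed the filter and were tested on the log2(FPKM + 1) scale, on which the change of a low gene is understated. With limma over all 12248 tested genes, 0 of the 24 had an adjusted p under 0.05, where 0.253% of all tested genes did (31, of which 24 were higher with tofogliflozin and 7, or 0.0572%, lower). At an unadjusted p under 0.05 there was 1 marker, Lyz2, which was lower, and 6.39% of all tested genes were lower by that rule. The lower side nevertheless held 23 of the 24 markers, with a log2 change below 0 against 50.3% of all tested genes. The median log2 change was -0.42 over the 24 markers and 0.00 over all tested genes. Without the filter 29 of 31 were below 0, with a median of -0.38.

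The direction rested largely on 1 mouse of the diet group. Of the 24 tested markers, 23 were highest in diet replicate 2, against 18.9% of all tested genes, and 28 of all 31 were. With upper-quartile, total and quantile scaling it was again 23 of 24, against 24.6%, 36.9% and 18.2% of all tested genes. Without diet replicate 2 16 of 24 had a change below 0, where 50.8% of all tested genes did, and the median was -0.06. None of the 24 had its 3 tofogliflozin libraries entirely on one side of its 3 diet libraries, whereas 18.5% of all tested genes did. The log2 changes of 23 of the 24 had a 95% interval that included 0.

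**Figure D1:**
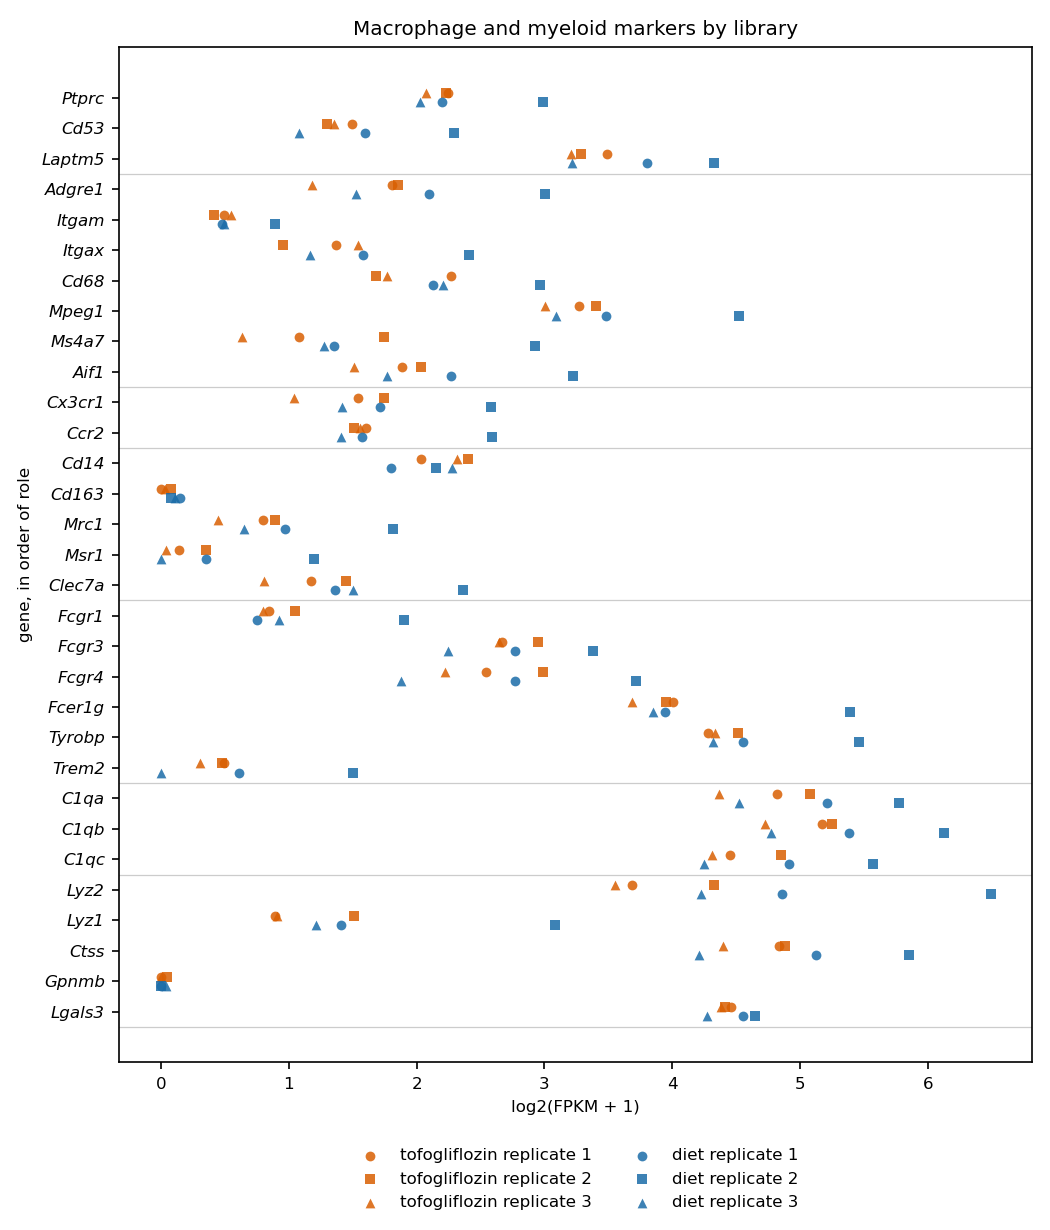
Level of each of the 31 markers in each library, on the log2(FPKM + 1) scale, with tofogliflozin libraries in orange above the diet libraries in blue; symbols give the replicate number and grey lines part the roles. The blue square, diet replicate 2, lies to the right of all other points for 28 of the 31 genes.

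Values below are in the order of replicates 1, 2 and 3. Among the leukocyte surface proteins, Ptprc encodes CD45, the phosphatase carried by nearly all white blood cells. It stood at 3.74, 3.70 and 3.20 FPKM in the tofogliflozin libraries, against 3.59, 6.95 and 3.08 FPKM in the diet libraries. Diet replicate 2 was the high library, and the other 5 lay within 1.22-fold of each other. Its log2 change was -0.22 ± 0.23 (SE; limma adjusted p = 0.736), with a 95% interval from -0.75 to 0.31. Cd53, a leukocyte tetraspanin, was at 1.81, 1.47 and 1.56 FPKM with tofogliflozin and at 2.03, 3.91 and 1.12 FPKM with diet alone. The diet group thus held both the highest and the lowest Cd53 value. Laptm5, a lysosomal membrane protein of blood cells, was at 10.2, 8.74 and 8.25 FPKM with tofogliflozin and at 13, 19.1 and 8.28 FPKM on the diet. Here diet replicates 1 and 2 exceeded every tofogliflozin library and diet replicate 3 lay among them (log2 change -0.46, limma adjusted p = 0.478).

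The 7 genes of macrophage identity and adhesion included 6 that were tested, all with a log2 change below 0 and a median of -0.56. Adgre1 encodes F4/80, the surface receptor by which mouse macrophages are usually recognised. Its values were 2.5, 2.62 and 1.27 FPKM with tofogliflozin and 3.27, 7.02 and 1.87 FPKM with diet alone. Diet replicates 1 and 2 lay above the tofogliflozin range and diet replicate 3 within it (log2 change -0.59, 95% interval -1.41 to 0.22; limma adjusted p = 0.526). Cd68, a glycoprotein of macrophage lysosomes, had 3.81, 2.21 and 2.40 FPKM with tofogliflozin and 3.36, 6.82 and 3.60 FPKM without. For Cd68 tofogliflozin replicate 1 was above both diet replicates 1 and 3 (log2 change -0.53, 95% interval -1.09 to 0.04; limma adjusted p = 0.415). Aif1 encodes IBA1, an actin-binding protein of macrophages and microglia. It measured 2.69, 3.09 and 1.86 FPKM with tofogliflozin and 3.83, 8.33 and 2.40 FPKM on the diet (log2 change -0.61, limma adjusted p = 0.484). Its order of libraries was that of Adgre1 in the diet group and in the tofogliflozin group.

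Mpeg1 encodes perforin-2, a pore-forming protein that phagocytes use against engulfed bacteria. It was more abundant, at 8.64, 9.59 and 7.05 FPKM with tofogliflozin and 10.2, 21.9 and 7.53 FPKM with diet alone (limma adjusted p = 0.578). Ms4a7, a tetraspan membrane protein of macrophages, spread most within this role, with 1.12, 2.34 and 0.551 FPKM with tofogliflozin and 1.55, 6.62 and 1.42 FPKM on the diet. Its level in diet replicate 2 was 4.65 times the median of the other 5 libraries, yet tofogliflozin replicate 2 was above diet replicates 1 and 3. The adhesion molecules behaved less alike. Itgax, which encodes CD11c, the integrin alpha chain common to dendritic cells and some kidney macrophages, had 1.59, 0.937 and 1.91 FPKM with tofogliflozin and 1.99, 4.31 and 1.24 FPKM with diet alone. The ratio of Itgax to Adgre1 was 0.635, 0.358 and 1.51 with tofogliflozin and stayed between 0.609 and 0.661 in the 3 diet libraries. Itgam, encoding CD11b, stayed under the filter at 0.405, 0.336 and 0.465 FPKM with tofogliflozin and 0.393, 0.861 and 0.409 FPKM on the diet. Its transcript shares 72.4% of its 50-base windows with the overlapping gene model Gm49368 on the same strand, so its FPKM may be split between the 2 and is uncertain.

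Both chemokine receptors followed the same outline. Cx3cr1, the fractalkine receptor of patrolling monocytes and of many kidney macrophages, was at 1.91, 2.34 and 1.05 FPKM with tofogliflozin and 2.28, 5.0 and 1.67 FPKM with diet alone (log2 change -0.46, limma adjusted p = 0.566). Ccr2, the receptor that brings inflammatory monocytes out of the blood, was at 2.03, 1.84 and 1.94 FPKM with tofogliflozin and 1.97, 5.04 and 1.65 FPKM on the diet (-0.30, limma adjusted p = 0.700). Leaving out diet replicate 2, the Ccr2 values of all other libraries differed by no more than 1.23-fold. The ratio of Cx3cr1 to Ccr2 was lowest in tofogliflozin replicate 3, at 0.545, and otherwise lay between 0.941 and 1.27.

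The scavenger and pattern recognition receptors were mostly rare. Clec7a, which encodes the beta-glucan receptor dectin-1, had 1.26, 1.73 and 0.75 FPKM with tofogliflozin and 1.57, 4.15 and 1.83 FPKM with diet alone. For Clec7a diet replicate 3 exceeded all tofogliflozin libraries, which it did for no other tested marker (log2 change -0.60, 95% interval -1.24 to 0.04; limma adjusted p = 0.414). Cd14, the co-receptor for lipopolysaccharide, was the 1 tested marker with a log2 change above 0. It had 3.10, 4.28 and 3.99 FPKM with tofogliflozin and 2.49, 3.44 and 3.84 FPKM on the diet (log2 change 0.18, 95% interval -0.18 to 0.53; limma adjusted p = 0.676). Cd14 was highest in tofogliflozin replicate 2 and lowest in diet replicate 1, and in diet replicate 2 it was 0.897 times the median of the other libraries.

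The remaining members of that role did not reach the filter. Mrc1, the mannose receptor CD206, ranged from 0.366 to 0.859 FPKM with tofogliflozin and from 0.568 to 2.51 FPKM with diet alone. Its ratio to Adgre1 held between 0.289 and 0.358 over all 6 libraries. Msr1, the class A scavenger receptor, was listed at 0.105, 0.274 and 0.0302 FPKM with tofogliflozin and at 0.278, 1.29 and 0 FPKM on the diet. Those values correspond to about 3.85, 7.87 and 0.962 fragments with tofogliflozin, and about 7.93 and 36.8 fragments in diet replicates 1 and 2. Cd163, the haemoglobin scavenger receptor, was the 1 marker of all 31 whose groups did not overlap. It was listed at 0, 0.0549 and 0.0247 FPKM with tofogliflozin and at 0.111, 0.0555 and 0.0768 FPKM with diet alone, which is at most about 3.88 fragments in a library and too few to tell the groups apart.

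Fc receptors bind the constant part of antibodies, and their signals pass through adaptors. Fcgr3, a low-affinity activating receptor for IgG, was at 5.35, 6.73 and 5.24 FPKM with tofogliflozin and at 5.80, 9.44 and 3.74 FPKM with diet alone. Diet replicate 3 was its lowest library (log2 change -0.05, 95% interval -0.63 to 0.54; limma adjusted p = 0.958). Fcgr3 shares 12.8% of its 50-base windows with Fcgr2b, the inhibitory receptor gene, which limits the certainty of the Fcgr3 level and change. Fcgr2b was far more abundant, at 42.7, 42.4 and 43.6 FPKM with tofogliflozin and 49.0, 47.1 and 42.1 FPKM with diet alone. Fcgr4, which binds IgG2 subclasses in the mouse, had 4.84, 6.95 and 3.67 FPKM with tofogliflozin and 5.82, 12.1 and 2.67 FPKM on the diet. It too was lowest in diet replicate 3 (log2 change -0.20, limma adjusted p = 0.880). Fcgr1, the high-affinity IgG receptor, stayed under the filter, at 0.741 to 1.07 FPKM with tofogliflozin and 0.687 to 2.74 FPKM with diet alone.

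The adaptors had higher levels in FPKM, a unit per transcript length, than Fcgr1, Fcgr3 and Fcgr4 in every library. Fcgr2b, which is not among the markers, was above both adaptors in every library. Fcer1g, the common gamma chain of Fc receptors, was at 15.1, 14.4 and 11.9 FPKM with tofogliflozin, against 14.4, 41.0 and 13.5 FPKM with diet alone. Apart from diet replicate 2 its libraries spanned 1.27-fold. Tyrobp encodes DAP12, the adaptor of TREM2 and related receptors, and had 18.4, 21.9 and 19.1 FPKM with tofogliflozin and 22.5, 43.0 and 18.9 FPKM on the diet. The log2 changes of the pair were -0.52 and -0.40 (limma adjusted p = 0.594 and 0.557). Trem2, the lipid-sensing partner of DAP12 on macrophages, was listed at 0.408, 0.390 and 0.234 FPKM with tofogliflozin and at 0.527, 1.84 and 0 FPKM on the diet. About 15.7 Trem2 fragments lay in diet replicate 2 and at most about 4.50 in any other library.

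The chains of C1q, the recognition molecule of the classical complement pathway that macrophages secrete, had the highest summed FPKM of the 7 roles in every library but diet replicate 2, where the lysosomal and secreted proteins summed higher (177, against 169 for C1q). C1qa was at 27.3, 32.7 and 19.6 FPKM with tofogliflozin, against 36.0, 53.6 and 22 FPKM with diet alone. C1qb was at 35.1, 37.1 and 25.5 FPKM with tofogliflozin, against 40.8, 68.9 and 26.3 FPKM. C1qc was at 20.9, 27.8 and 18.8 FPKM with tofogliflozin, against 29.2, 46.6 and 18.1 FPKM. For all 3 chains diet replicates 1 and 2 exceeded every tofogliflozin library, while diet replicate 3 lay near tofogliflozin replicate 3. The log2 changes were -0.41, -0.38 and -0.38, with limma adjusted p between 0.603 and 0.651.

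The 3 chains form 1 protein in equal numbers, and their transcripts kept close proportions. The ratio of C1qb to C1qa lay between 1.13 and 1.30 and that of C1qb to C1qc between 1.33 and 1.67 over the 6 libraries. Each chain rested on at least about 179 fragments per library. In the GENCODE M21 annotation of mm10 the genes lie side by side on the minus strand of chromosome 4, C1qb at chr4:136880129-136886187, C1qc at chr4:136889804-136893065 and C1qa at chr4:136895917-136898803. Their coding sequences are 60.7% to 62.4% identical and share no run longer than 15 bases, and 0 of the 50-base windows of each transcript recur in another annotated gene.

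The promoters of the markers were searched for the binding letters of PU.1, the product of Spi1 and the master regulator of the myeloid lineage. The RefSeq promoter table (GRCm38.p6) held 30 start sites for 26 of the 31 genes, and the 250 bases before each were read. Adgre1, Cd14, Msr1, C1qa and Tyrobp were not in it. The letters GAGGAA occurred on either strand in 17 of the 30 windows (56.7%), against 23.3% of all 32851 windows of that table. The longer GAGGAAGT, which contains them, occurred in 2 of the 30, those of Fcgr4 and C1qc, against 2.44% of all windows. The motif TGANTCA of AP-1 occurred in 4 of the 30 (13.3%, against 6.75%), and TTGCNNAA of C/EBP in 4 (13.3%, against 9.56%). No GAGGAA lay in the windows of Ccr2, Cd163, Cx3cr1, Fcer1g, Gpnmb, Itgax, Lgals3, Lyz1, Lyz2, Mpeg1 and Ms4a7. Among those tested, levels in diet replicate 2 ran from 1.19 (Lgals3) to 5.68 (Lyz1) times the median of the other libraries. The markers were chosen as myeloid genes, so these shares say nothing about diet replicate 2. A match describes letters and not a bound site. Only the letters given were searched, so a window without them may still hold a PU.1 site with other letters.

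The windows of Fcgr4 and C1qc are printed because they hold the longer motif, and that of C1qb as the abundant chain with the shorter one. Each runs 5′ to 3′ on the strand of its gene and ends at the base before the RefSeq start. Capitals mark GAGGAAGT or GAGGAA on either strand, so that ACTTCCTC is the longer motif read on the other strand. Fcgr4 is at chr1:171018676-171018925 on the plus strand, C1qc at chr4:136892915-136893164 on the minus strand and C1qb at chr4:136886201-136886450 on the minus strand.
Fcgr4: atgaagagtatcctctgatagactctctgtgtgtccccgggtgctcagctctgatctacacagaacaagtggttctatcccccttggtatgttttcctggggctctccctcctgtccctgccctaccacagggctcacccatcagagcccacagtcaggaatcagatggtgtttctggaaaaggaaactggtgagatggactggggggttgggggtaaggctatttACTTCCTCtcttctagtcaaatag
C1qc: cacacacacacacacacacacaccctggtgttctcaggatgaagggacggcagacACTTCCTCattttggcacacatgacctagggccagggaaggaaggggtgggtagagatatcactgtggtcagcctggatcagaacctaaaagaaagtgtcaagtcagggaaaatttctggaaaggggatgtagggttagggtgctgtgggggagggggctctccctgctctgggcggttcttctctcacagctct
C1qb: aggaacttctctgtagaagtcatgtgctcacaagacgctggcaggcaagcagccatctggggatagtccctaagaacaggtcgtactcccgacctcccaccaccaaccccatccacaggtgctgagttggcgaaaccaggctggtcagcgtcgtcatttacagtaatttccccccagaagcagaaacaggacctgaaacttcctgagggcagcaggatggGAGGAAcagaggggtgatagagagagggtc
In Fcgr4 16 bases part the motif from the start, in C1qc 187 and in C1qb 24.

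The lysosomal and secreted proteins held the marker with the largest log2 change. Lyz2 encodes lysozyme M, the bacterial cell wall-cleaving enzyme of macrophages and neutrophils, whose promoter drives Cre in many myeloid knockouts. It had 11.9, 19.1 and 10.7 FPKM in the tofogliflozin libraries, against 28.1, 88.9 and 17.7 FPKM in the diet libraries. The groups met only where tofogliflozin replicate 2 passed diet replicate 3. The log2 change was -1.34 ± 0.51 (SE), with a 95% interval from -2.51 to -0.17 (limma unadjusted p = 0.0297, adjusted p = 0.312). It was the 1 interval of the 24 that left out 0. Without diet replicate 2 the change was -0.69, and without any 1 library it lay between -1.82 and -0.69.

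Lyz1 encodes lysozyme P, the enzyme of Paneth cells, and is the neighbour of Lyz2 on chromosome 10 minus strand. It was at 0.852, 1.85 and 0.881 FPKM with tofogliflozin and at 1.65, 7.47 and 1.32 FPKM on the diet (log2 change -0.80, limma adjusted p = 0.508). For Lyz1 tofogliflozin replicate 2 lay above both diet replicates 1 and 3, and the ratio of Lyz2 to Lyz1 stayed between 10.3 and 17.0. The 2 coding sequences are shown because they are near copies, which bears on whether Lyz1 was measured on its own. They are 444 bases each, differ at 22 (95% identity) and share a run of 118 bases. Bases 1 to 300 of each spliced coding sequence are printed from the start codon, and capitals mark the 20 bases that differ there. The sequences are from GENCODE M21 on mm10, minus strand, with the Lyz2 coding exons within chr10:117278124-117282242 and those of Lyz1 within chr10:117288586-117292838.
Lyz2: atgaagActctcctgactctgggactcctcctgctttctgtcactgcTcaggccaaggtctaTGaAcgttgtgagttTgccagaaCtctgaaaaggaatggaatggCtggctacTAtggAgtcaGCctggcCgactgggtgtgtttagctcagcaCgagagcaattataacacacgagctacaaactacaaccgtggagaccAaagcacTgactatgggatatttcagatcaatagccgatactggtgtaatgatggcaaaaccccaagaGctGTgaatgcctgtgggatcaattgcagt
Lyz1: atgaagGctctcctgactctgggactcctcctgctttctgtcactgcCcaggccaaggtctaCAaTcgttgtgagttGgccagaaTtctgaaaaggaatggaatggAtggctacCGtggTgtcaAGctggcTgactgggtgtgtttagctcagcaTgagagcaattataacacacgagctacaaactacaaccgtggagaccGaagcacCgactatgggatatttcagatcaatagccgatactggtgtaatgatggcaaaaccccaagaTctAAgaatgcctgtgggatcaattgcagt
Of the 50-base windows of the whole transcripts, 195 are common to both, 15.4% of Lyz2 and 16.1% of Lyz1. The Lyz1 level is therefore uncertain, since reads from such windows fit either gene and how the authors treated such reads is not stated in the labels.

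Ctss encodes cathepsin S, the lysosomal protease that trims the invariant chain during antigen presentation. It was at 27.5, 28.5 and 20.1 FPKM with tofogliflozin and 34.0, 56.9 and 17.5 FPKM with diet alone. The diet libraries enclosed the tofogliflozin libraries (log2 change -0.36, 95% interval -1.19 to 0.47; limma adjusted p = 0.721). Lgals3, which encodes the sugar-binding lectin galectin-3 and is also made by kidney epithelium, was the steadiest marker. It was at 21.0, 20.3 and 19.9 FPKM with tofogliflozin and 22.5, 24.1 and 18.3 FPKM on the diet, which gave -0.07 on the log2 scale (95% interval -0.31 to 0.16; limma adjusted p = 0.807). Gpnmb, a glycoprotein of lipid-laden macrophages, was listed at 0, 0.0321 and 0 FPKM with tofogliflozin and at 0, 0 and 0.0299 FPKM on the diet. Each of those values above 0 is worth about 0.939 fragments, and the gene was not detectable at this depth in the other libraries.

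**Figure D2:**
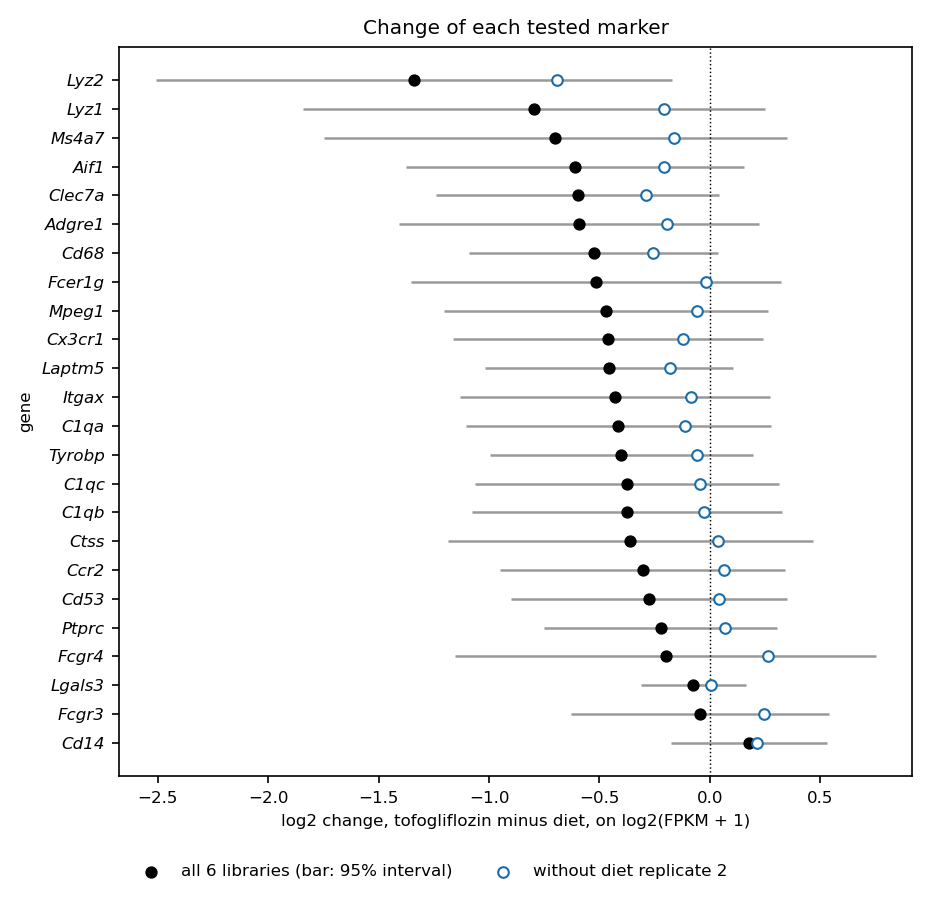
Log2 change of the 24 tested markers, tofogliflozin minus diet on the log2(FPKM + 1) scale, with all 6 libraries (black points, bars for the 95% interval) and without diet replicate 2 (open circles). The Lyz2 bar, from -2.51 to -0.17, is the only one clear of 0, and the open circles run from -0.69 for Lyz2 to 0.26 for Fcgr4.

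Variation within the groups was larger in the diet group for every tested marker. On the log2 scale the median SD over the 24 markers was 0.273 among the tofogliflozin libraries and 0.638 among the diet libraries. Over all tested genes it was 0.104 and 0.126, and the diet SD was the larger for 60.3%. The level in diet replicate 2 was a median of 2.51 times that of the median of the other 5 libraries. It was over 2-fold for 18 of the 24, whereas 190 of 12248 genes (1.55%) exceeded 2-fold and the median of all was 0.991. Across the tested markers this ratio ran from 0.897 for Cd14 and 1.19 for Lgals3 to 5.01 for Lyz2 and 5.68 for Lyz1.

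The other diet mice did not stand together either. Diet replicate 1 lay above all tofogliflozin libraries for 13 of the 24, within their range for 10 and below it for 1, which was Cd14. Diet replicate 3 lay below all tofogliflozin libraries for 8, within for 15 and above for 1, which was Clec7a. The lowest library was tofogliflozin replicate 3 for 11 markers, where it was the lowest for 17% of all tested genes, and diet replicate 3 for 8, against 15.9%. Summed over the 31 genes, the FPKM was 235, 265 and 193 with tofogliflozin, against 295, 564 and 202 with diet alone. The mean log2 deviation of the tested markers from their own means was -0.18, -0.05 and -0.42 with tofogliflozin and 0.04, 0.93 and -0.32 on the diet. Tofogliflozin replicate 3 and diet replicate 3 were thus the low libraries, 1 in each group.

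**Figure D3:**
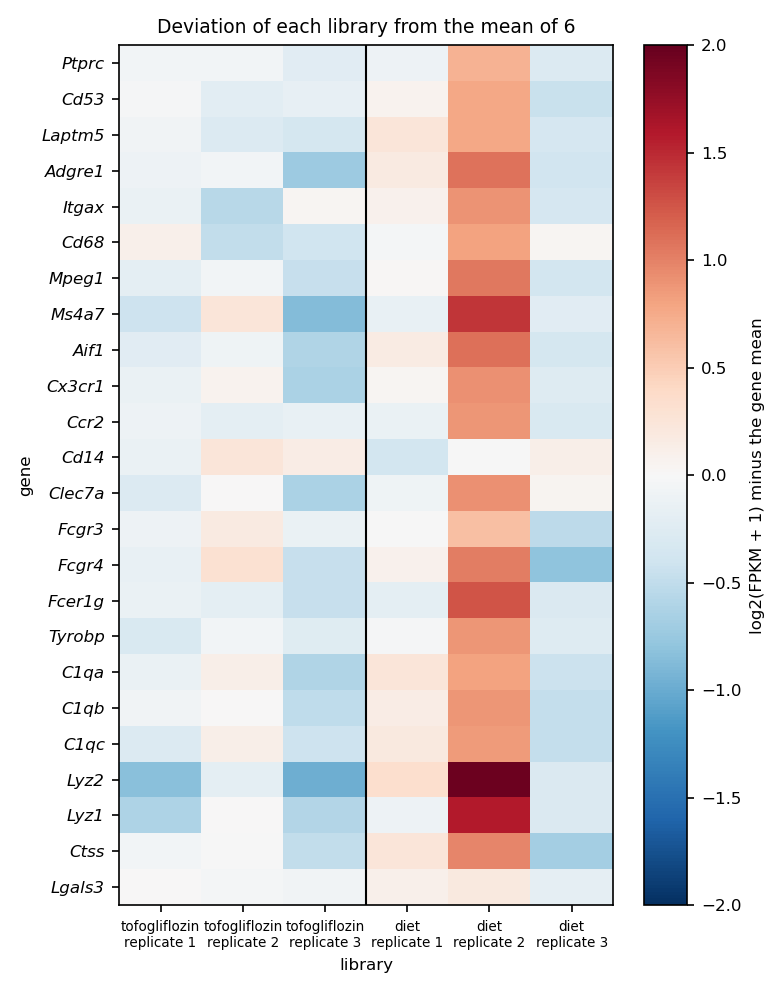
Deviation of each library from the mean of the 6 libraries for the 24 tested markers, in log2(FPKM + 1); red is above the gene's mean and blue below, and the black line parts the tofogliflozin libraries (left) from the diet libraries (right). The column of diet replicate 2 averages 0.93 and is red in all rows but Cd14, and tofogliflozin replicate 3 and diet replicate 3 are mostly blue.

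Leaving out diet replicate 3 widened the difference. Without it 15 of the 24 markers were lower at an unadjusted limma p under 0.05, where 6.66% of all tested genes were, and the median log2 change was -0.71. In the same comparison 13 of 24 had every tofogliflozin library below both remaining diet libraries, against 14.7% of all tested genes. Still 0 of the 24 had an adjusted p under 0.05, which 0.229% of all tested genes had in that direction, and the lowest was 0.118 (limma). The size of the difference thus depended on which of the 3 diet mice were counted.

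Other genes of the myeloid lineage, 46 in the list examined, gave 25 that passed the filter. None had an adjusted p under 0.05 with limma, and 4 were lower at an unadjusted p under 0.05, against 6.39% of all tested genes. A log2 change below 0 was found for 21, against 50.3% of all tested genes, and the median was -0.22. Diet replicate 2 was the highest library for 19 of the 25, against 18.9% of all tested genes. Csf1r, the receptor for CSF1 and IL-34 on which macrophage survival depends, had 13.4, 15.6 and 11.1 FPKM with tofogliflozin and 17.5, 20.2 and 17.7 FPKM with diet alone. Spi1, which encodes PU.1, had 2.48, 3.17 and 2.39 FPKM with tofogliflozin and 3.42, 6.2 and 3.43 FPKM on the diet. These were the 2 of the 25 whose groups did not overlap, as in 8.86% of all tested genes on the lower side. Their log2 changes were -0.45 ± 0.12 and -0.51 ± 0.20 (SE; limma adjusted p = 0.198 and 0.332). Folr2, a folate receptor of resident macrophages, also had an unadjusted p under 0.05 (limma adjusted p = 0.323).

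The markers of resident macrophages Timd4 and Vsig4 were listed at 0 in all 6 libraries, which does not show that such cells were absent. Folr2 was present in every library, at 1.24 to 1.85 FPKM with tofogliflozin and 1.81 to 3.32 FPKM with diet alone. Without diet replicate 2, 14 of the 25 other myeloid genes had a change below 0, near the 50.8% of all tested genes, and the median was -0.05.

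Of the other immune lists, some were high in the same mouse and some were not. Over all tested genes, 50.3% had a change below 0 and 18.9% were highest in diet replicate 2. Of the 9 MHC class II genes tested, which present antigen to helper T cells, 8 had a change below 0 and 8 were highest in diet replicate 2, with a median change of -0.62 and 0 called by limma (0 at an unadjusted p under 0.05). The median was -0.06 when diet replicate 2 was left out, and without diet replicate 3 it was -1.30, with 2 called and 8 lower at an unadjusted p under 0.05 (limma, lowest adjusted p = 0.0308). Without diet replicate 3, 0.229% of all tested genes were called lower and 6.66% were lower at an unadjusted limma p under 0.05. Their list summed to 2209, 2491 and 1476 FPKM with tofogliflozin and 5193, 6841 and 1000 FPKM with diet alone, so diet replicates 1 and 2 were both high and diet replicate 3 was the lowest. Dendritic cell markers had 3 tested genes, all highest in diet replicate 2, and the list summed to 8.28 to 9.54 FPKM with tofogliflozin and 7.02 to 14.1 FPKM on the diet. The list of T and NK cell markers summed to 8.63, 12.1 and 5.74 FPKM with tofogliflozin and 14.6, 16.2 and 6.76 FPKM on the diet. B and plasma cell markers had 0 of 3 tested genes highest in diet replicate 2, and summed to 5.45 to 7.51 FPKM with tofogliflozin and 9.42, 8.78 and 10.3 FPKM on the diet. Monocyte markers had 2 of 4, Plac8 and Ly6c2. Their list summed to 56.3 to 75.9 FPKM with tofogliflozin and 101, 79.5 and 86.2 FPKM on the diet. Of the 4 tested genes, 0 had all tofogliflozin libraries below all diet libraries, against 8.86% of all tested genes. The low diet sum of replicate 2 came from Ace, the largest part of the list. The part of monocytes in the Ace values was not tested. Ace had 34.2, 48.6 and 32.7 FPKM with tofogliflozin and 70.8, 48.2 and 57.5 FPKM on the diet. Plac8 had 24.6, 20.6 and 17.3 FPKM with tofogliflozin and 22.8, 25.8 and 19.0 FPKM on the diet. Nr4a1, like Ace, was lowest of the diet libraries in replicate 2. Proliferation genes were highest in diet replicate 2 for 4 of 5 tested. Birc5, a mitotic survival protein, had 1.67, 1.35 and 0.945 FPKM with tofogliflozin and 1.45, 5.19 and 1.55 FPKM on the diet. The part of these cell types in the marker values was not tested.

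Neutrophils also express Lyz2. The 12 neutrophil markers found summed to 11.9, 13.1 and 15.1 FPKM with tofogliflozin and 9.12, 8.2 and 13.3 FPKM with diet alone. Mpo, Elane and Camp, which mark neutrophil granules, were listed at 0 in every library. Such values do not show that neutrophils were absent, and the part of neutrophils in the Lyz2 values was not tested. The sums consisted mostly of the 2 tested genes, which encode the subunits of calprotectin. S100a9 was at 5.68, 5.43 and 7.50 FPKM with tofogliflozin and 2.57, 3.29 and 5.06 FPKM with diet alone, and S100a8 at 4.76, 5.47 and 6.02 FPKM with tofogliflozin and 4.31, 3.07 and 5.66 FPKM with diet alone. Neither was highest in diet replicate 2. Their log2 changes were 0.66 and 0.29 (limma adjusted p = 0.223 and 0.534). For S100a9 the unadjusted limma p was 0.0104 and the groups did not overlap, as in 18.5% of all tested genes in either direction. Csf3r, the receptor for granulocyte colony-stimulating factor, was under the filter and highest there, at 0.429, 0.513 and 0.337 FPKM with tofogliflozin and 0.590, 1.24 and 0.465 FPKM on the diet. Endothelial, podocyte and proximal tubule lists summed in diet replicate 2 to 0.967, 1.02 and 0.899 times the median of the other libraries, against 2.40 for the 31 markers.

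**Figure D4:**
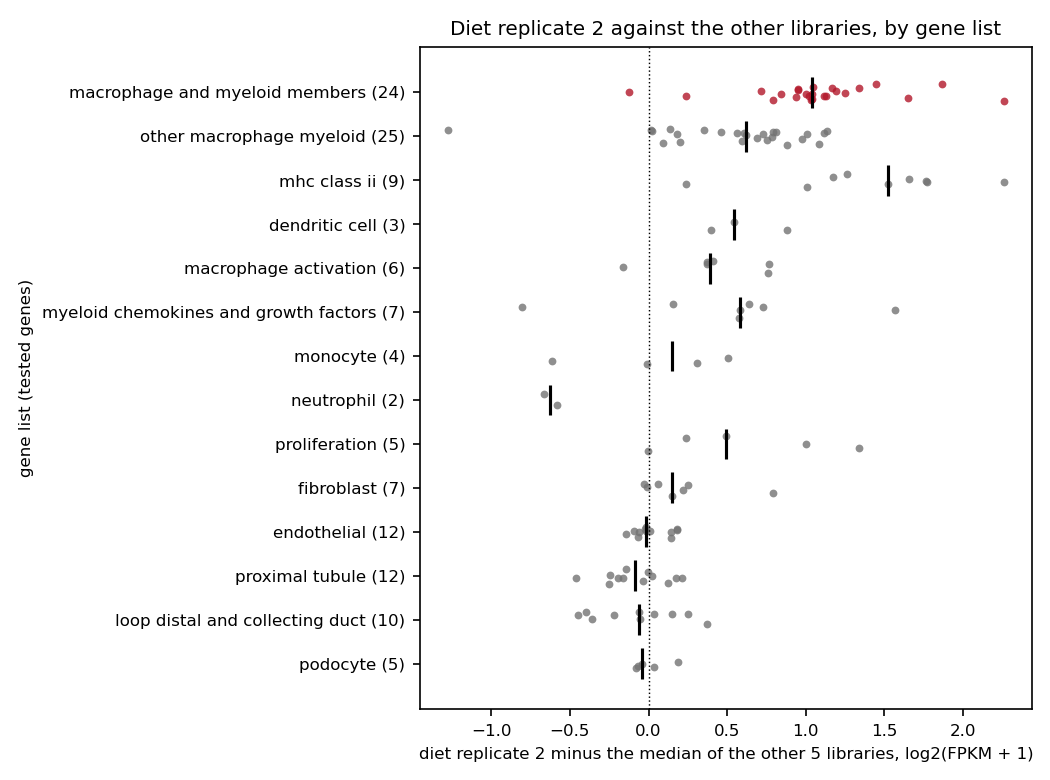
Level in diet replicate 2 minus the median of the other 5 libraries, in log2(FPKM + 1), for each tested gene of the markers (red) and of 13 other lists (grey), with the number tested in brackets; black ticks are list medians and the dotted line is 0. The median is 1.04 for the markers, 0.62 for the other macrophage and myeloid genes, 1.52 for MHC class II and -0.01 for endothelial genes.

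Signals that draw or sustain macrophages were read beside the markers. All 7 tested genes of the list of myeloid chemokines and growth factors had a log2 change below 0, against 50.3% of all tested genes. Their median was -0.25, and 0 had an adjusted p under 0.05 with limma. At an unadjusted p under 0.05 there was 1, which was lower, as were 6.39% of all tested genes. Il34, a tubule-made cytokine that acts through the CSF1 receptor, was at 7.02, 10.7 and 6.02 FPKM with tofogliflozin and 36.0, 16.4 and 23.5 FPKM with diet alone. The groups were apart and the log2 change was -1.53 ± 0.28 (SE; limma adjusted p = 0.0738). Unlike the markers, Il34 was lowest of the diet libraries in replicate 2, and without that library it was called (limma adjusted p = 0.0347). It was also called with total scaling (limma adjusted p = 0.0479) and array weights (0.0342), and with any other library left out the limma adjusted p lay between 0.0875 and 0.305. Over all 16 alternatives it lay between 0.0342 and 0.305 (limma). Cx3cl1, the ligand of the Cx3cr1 receptor, also did not overlap, at 26.8, 27.0 and 20.6 FPKM with tofogliflozin and 28.1, 30.2 and 28.7 FPKM on the diet (log2 change -0.23, limma adjusted p = 0.431). Il34 and Cx3cl1 were the 2 of the 7 with tofogliflozin wholly lower, as were 8.86% of all tested genes. Csf1, the other ligand of the CSF1 receptor, was at 2.63, 3.14 and 2.03 FPKM with tofogliflozin and 3.22, 4.44 and 2.31 FPKM with diet alone (limma adjusted p = 0.646).

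Genes of macrophage activation did not share a direction. Of 17 listed, 6 were tested. A log2 change below 0 was found for 3 and above 0 for 3, against 50.3% below 0 over all tested genes. With limma 0 had an adjusted or an unadjusted p under 0.05. Even so, diet replicate 2 was the highest library for 5 of the 6, against 18.9% of all tested genes. Tgfb1, a cytokine of fibrosis and tissue repair, was at 6.18, 5.13 and 2.91 FPKM with tofogliflozin and 5.89, 7.90 and 6.14 FPKM with diet alone (log2 change -0.45, limma adjusted p = 0.428). Il1b, the inflammasome cytokine, was at 1.69, 1.75 and 0.555 FPKM with tofogliflozin and 1.67, 3.53 and 1.63 FPKM on the diet (-0.49, limma adjusted p = 0.515). Spp1, which encodes osteopontin and is made chiefly by tubule cells in kidney, was at 587, 476 and 554 FPKM with tofogliflozin and 387, 484 and 542 FPKM on the diet (0.20, limma adjusted p = 0.580).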

How the data were processed

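Each library has 1 deposited table of gene symbols with their FPKM values, 24346 genes long and without counts. A stranded mRNA kit was used, per the labels' protocols. Cuffdiff 2.2.1, TopHat2 2.1.1, SAMtools 0.1.18 and Bowtie2 2.2.8 are named with build mm10, per the submitters' processing notes. Nothing in the sources used here gives the annotation, the strand setting, the treatment of reads with several matches or a scaling between libraries. The upper quartiles of the authors' FPKM lay at 10.5 to 10.6, so some scaling may already be present. Depth was estimated from the spacing of low values of single-transcript genes.

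The filter (1 FPKM or more in 3 or more of 6 libraries) kept 12248 genes, which were put on the log2(FPKM + 1) scale, with a pseudocount of 1. Groups came from the labels, 3 mice each. The test was limma 3.58.1 under R 4.3.3, moderated, two-sided and with a trend of variance on mean, Benjamini-Hochberg adjusted over all tested genes at a threshold of 0.05, and it was tested on simulated data. Standard errors and intervals are limma's. Positions and coding sequences are from GENCODE M21, and promoters from RefSeq.

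The members and lists were chosen with earlier results of these data known. Named genes are the 31 members and up to 4 tested genes of smallest p from each list, some of which are not reported here, though counts include them. Timd4, Vsig4, Mpo, Elane, Camp, Csf3r, Rpl26, Gm49368 and Fcgr2b are named outside that rule, after their values were seen. Alternatives were a pseudocount of 0.1, no filter, a filter of 5 FPKM, upper-quartile, total and quantile scaling, leaving out each library, a replicate block, array weights, a robust trend, no trend, and 0.1 as the threshold. Figures used matplotlib 3.10.9.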

Additional observations from a re-analysis of the deposited data

How the results depend on the processing

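No marker passed the threshold under any of the 16 alternatives fitted, and the lowest limma adjusted p of a marker over them was 0.118. The median log2 change of the markers stayed below 0 in all 16, from -0.71 to -0.06 when 1 library was left out. The number of markers below 0 was 16 to 23 with 1 library left out and 12 with a filter of 5 FPKM, which left 12 to test. The number of markers whose groups did not overlap was 0 to 13 with 1 library left out. The number of genes called over the whole table, 31, was less stable: 1 with no filter (17726 tested), 20 with a filter of 5 FPKM, 47 with upper-quartile scaling, 50 with total scaling, 123 with array weights, 61 with a robust trend, 152 at a threshold of 0.1, and 2 to 66 with 1 library left out. The cause was not tested. The log2 changes of 7 markers turned above 0 without diet replicate 2 and were lowest without diet replicate 3. Over the libraries left out they ran from -0.53 to 0.064 for Ccr2, from -0.56 to 0.043 for Cd53, from -0.79 to 0.035 for Ctss, from -0.32 to 0.25 for Fcgr3, from -0.66 to 0.26 for Fcgr4, from -0.19 to 0.0047 for Lgals3 and from -0.41 to 0.070 for Ptprc. Fcgr3 was also above 0 with array weights (0.034) and without tofogliflozin replicate 3 (0.01). The other 363 values of single markers kept direction and side. The counts of markers below 0 were added after the data were seen.

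Replicate numbers were not taken to pair the mice, since same-numbered libraries correlated at -0.05, -0.06 and 0.05 in their deviations from the group means and the labels give no shared litter or batch. With the replicate number as a block 26 genes were called and 0 markers, 10 of 24 markers were lower at an unadjusted limma p under 0.05, where 5.46% of all tested genes were, and the lowest adjusted p of a marker was 0.145.

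At about 7830000 to 10000000 fragments a library, 7 markers stayed under the filter on low values and were not tested.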
